A study of Mus musculus with 14 samples.

Results

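Matrix metalloproteinases and their tissue inhibitors were followed as a set of 10 genes, which were *Mmp2*, *Mmp3*, *Mmp9*, *Mmp10*, *Mmp12*, *Mmp13*, *Mmp14*, *Timp1*, *Timp2* and *Timp3*. The members were the probes that were not controls and whose gene name on the array was 1 of these symbols. This rule uses no measured value, but the set of symbols was chosen with earlier results of these data known. This gave 12 probes, *Mmp12* and *Timp2* having an additional probe each, of 55681 probes and 36161 gene names. RNA was hybridized to 14 one-colour Agilent mouse arrays in 5 groups. Healthy small intestine (3 arrays) and colon (3 arrays) carry the strain label C57BL/6J, adenomas (3 arrays) and the tissue adjacent to them (2 arrays) carry the label APCmin/+, and CT26 (3 arrays) is a colorectal cell line. *Apc* Min/+ mice carry a germline truncating allele of the tumour suppressor *Apc* on the C57BL/6J background and develop intestinal adenomas. The healthy animals were adults, and no treatment is recorded for any group.

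The sources of the groups limit the comparisons. All adenoma and adjacent pieces on the arrays are listed under 1 *Apc* Min/+ mouse, so that their spread is the spread between pieces of tissue and p-values measure no variation between mice. The methods describe colon tissue from *Apc* Min/+ mice and the sample list has 1 colon sample under such a mouse, whereas the labels give C57BL/6J for all colon arrays. CT26 is a single established line of BALB/c origin, so that strain, tumour and cell culture cannot be told apart in its comparisons with tissue. The tissues were profiled in bulk, so that fewer cells of a type and less RNA per cell cannot be told apart.

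The labels were set against marker genes. Of 8 Wnt target genes known to be raised by loss of *Apc*, 7 were higher on every adenoma array than on every small intestine array, with *Axin2* the exception. Of 10 epithelial genes, 4 or 5 were well above background on a CT26 array. *Krt18* lay between 4.92 and 5.77 there and *Krt20* between 0.73 and 2.71, and *Cldn7* and *Cdx2* were also measured on every CT26 array, whereas *Epcam*, *Cdh1*, *Krt19* and *Vil1* were not well above background on any. The third colon array stood apart. Its median log2 signal over 10 enterocyte genes of the small intestine was 5.80, against -2.66 and -2.26 on the other colon arrays, and that over 8 colonocyte genes was -0.33, against 5.50 and 5.30. Results that rest on colon are given with and without it, together at the end of each colon comparison where not beside the value. The arrays had between 46.8% and 58.2% of their probes well above background, and the third colon array had the lowest share.

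Matrix metalloproteinases are zinc-dependent enzymes that cut proteins of the extracellular matrix and many secreted or membrane-bound proteins. Most are secreted as inactive precursors by fibroblasts, leukocytes and, in injured or tumour tissue, epithelial cells, and become active once the propeptide is removed. TIMPs bind the active site and block it. In the gut, these enzymes are best known for matrix turnover in wound repair, inflammation and tumour invasion, and their transcription responds to cytokines and growth factors through AP-1, a dimer of Fos and Jun proteins.

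The promoters of the members were read from RefSeq (GRCm38.p6), which holds 9 for 8 of the 10 genes, each running from 250 bases before the transcription start to 50 after it. *Mmp2* and *Mmp9* had no promoter there. The AP-1 element TGANTCA, searched on both strands, was present in a promoter of 4 genes, *Mmp3*, *Mmp10*, *Mmp12* and *Mmp13*, and in 7.81% of all 32851 promoters of that length. TATAAA, the core of the TATA box, was found in the windows of the same 4 genes and in 13.6% of all windows. In *Mmp12* no match began before the transcription start, and the match lies in the 50 bases after it. The PEA3 element AGGAAG was present in 6 member genes against 35.4% of all promoters, and the TCF element CTTTGA in 1, *Timp1*, against 16% of all. Matches of different motifs overlapped 0 times in the member promoters. The 100 bases before the start of the 4 genes with the AP-1 element are shown, since 3 of these genes are among the 4 that were overexpressed in adenomas against adjacent tissue. The stretches run 5′ to 3′, and capitals mark TGANTCA and, where it falls within the stretch, TATAAA.
*Mmp3*, chr9:7445722-7445821, + strand: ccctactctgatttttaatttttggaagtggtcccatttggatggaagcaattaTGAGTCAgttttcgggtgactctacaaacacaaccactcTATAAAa
*Mmp10*, chr9:7502242-7502341, + strand: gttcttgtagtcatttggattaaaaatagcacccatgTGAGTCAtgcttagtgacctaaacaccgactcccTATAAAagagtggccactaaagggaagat
*Mmp13*, chr9:7272414-7272513, + strand: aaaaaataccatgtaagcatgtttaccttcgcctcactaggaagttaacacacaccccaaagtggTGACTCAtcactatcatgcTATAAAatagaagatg
*Mmp12*, chr9:7347274-7347373, + strand: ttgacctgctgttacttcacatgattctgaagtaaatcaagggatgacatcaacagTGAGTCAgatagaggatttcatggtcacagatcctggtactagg
The AP-1 element begins 46 bases before the start in *Mmp3*, 63 in *Mmp10*, 35 in *Mmp13* and 44 in the *Mmp12* promoter shown, and *Mmp12* has an additional promoter without it. TATAAA begins 7, 29 and 16 bases before the start of *Mmp3*, *Mmp10* and *Mmp13*. A match describes the letters of a window and is not a measured binding site. The 4 genes lie in a common cluster on chromosome 9, and the part of the element in their expression was not tested.

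Levels are given as the log2 of the background-subtracted signal minus the 75th percentile of the array, so that 0 is the 75th percentile of all probes on that array. A level compares arrays for the same probe and never one gene with another. Groups were compared pairwise with limma. Genes with a log2 fold change of 1.2 or more in either direction were called overexpressed or underexpressed where the p, adjusted over all tested probes by Benjamini-Hochberg, did not exceed 0.01. A probe was tested where all arrays of 1 or both of the groups had it well above background.

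**Figure D1:**
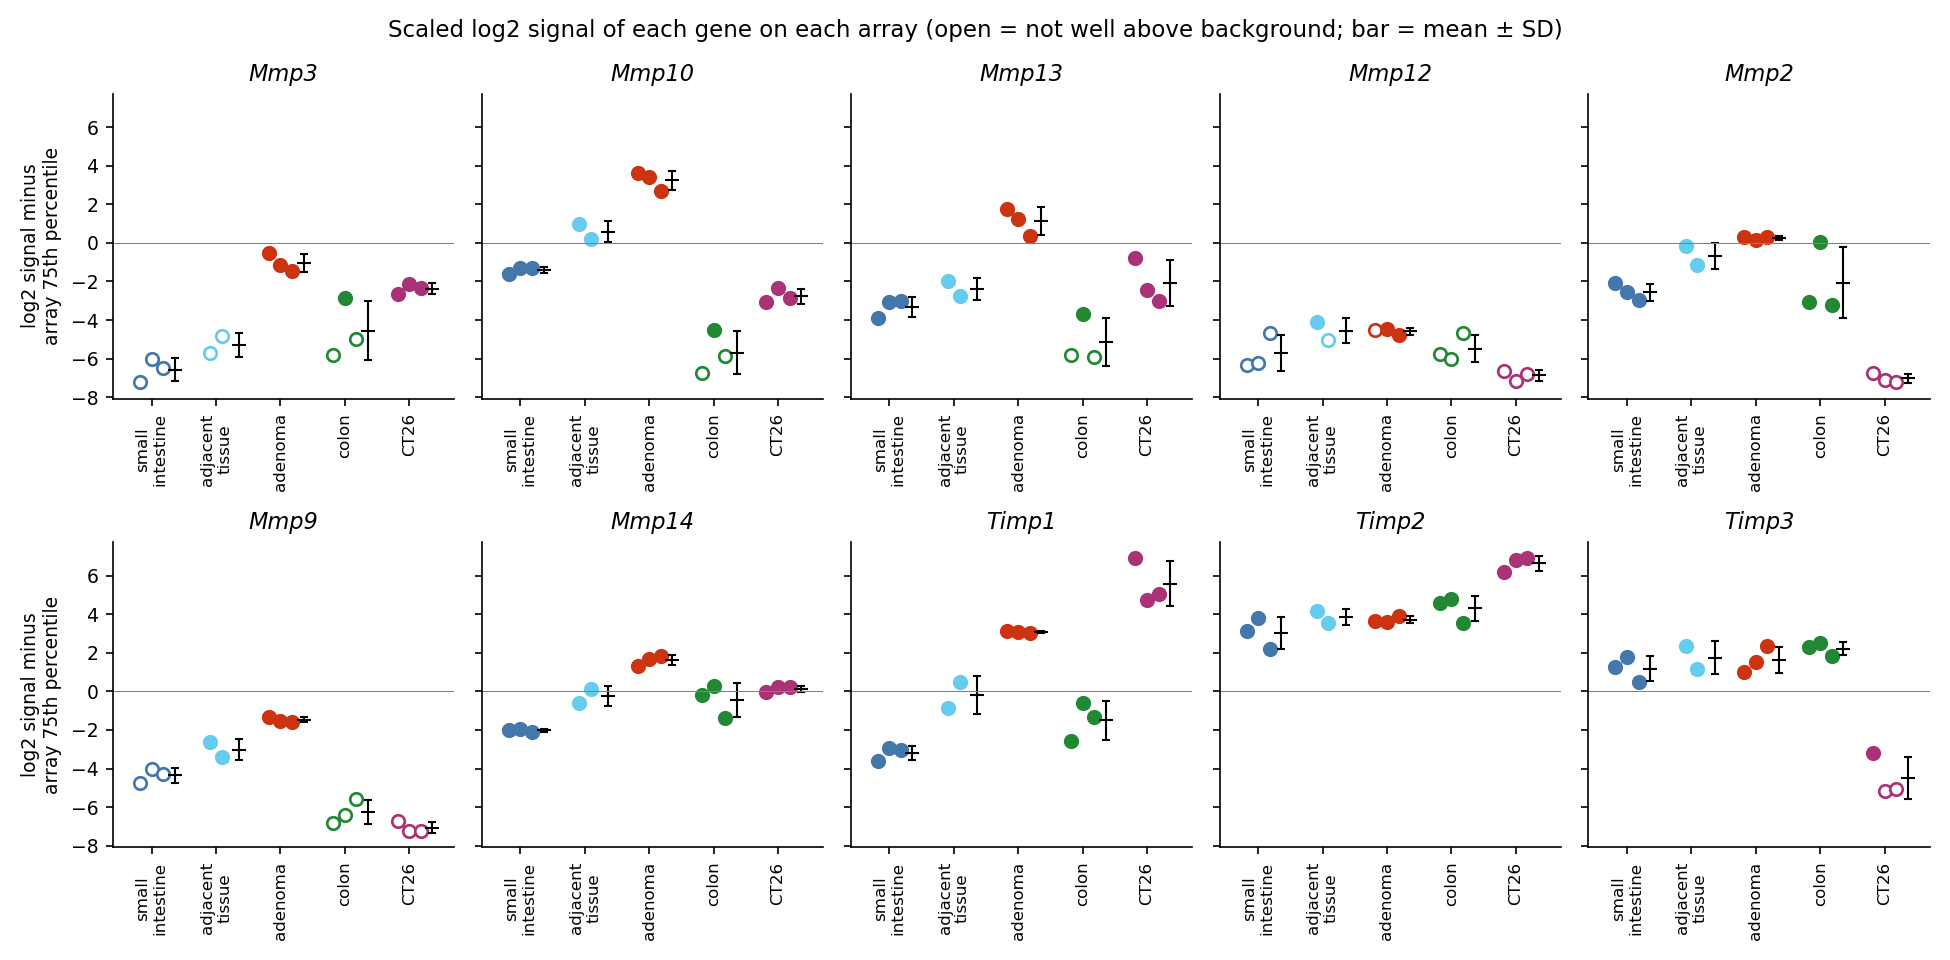
Scaled log2 signal (y axis) of the 10 genes on each of the 14 arrays, by group (x axis), where filled points are well above background, open points are not, and the black bars are the mean ± SD of a group. The adenoma arrays lie above all small intestine arrays for the 7 genes called overexpressed, a separation that was not counted over all genes. CT26 is highest for *Timp1* and *Timp2* and lowest for *Timp3*.

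Adenomas were first compared with healthy small intestine. Of the 10 genes, 7 were overexpressed in adenomas, namely 6 proteinases and 1 inhibitor, and 0 were underexpressed. Among the 22089 genes tested in this comparison, 11.3% were overexpressed and 11.1% underexpressed. *Timp2* and *Timp3* were not called, and *Mmp12* was too dim to be tested. The median log2 difference over all 10 genes was 3.26, against -0.39 over the 36149 genes measured in both groups. None of the 10 had an unadjusted limma p under 0.05 in the direction of underexpression, whereas 7 had in the direction of overexpression. Of all 29526 probes tested, 17531 had such a p in either direction. The 7 differences had the same sign on both array slides. This had to be so, since the values of the groups did not overlap for these genes. The median probe tested lay at -0.15 in this comparison.

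The stromelysins *Mmp3* and *Mmp10* cleave proteoglycans, fibronectin and laminin and can activate other proteinases of the family. *Mmp3* (probe on chromosome 9, 7455751 to 7455810, NCBI37/mm9) had log2 signals of -0.54, -1.13 and -1.48 in the adenomas. In small intestine it measured -7.20, -6.00 and -6.51, with no array well above background. It was at least 10.9-fold higher in adenomas (limma adjusted p = 0.000114). On the adjacent arrays *Mmp3* was likewise not well above background, at -5.73 and -4.84. Only the adenomas, among the tissues, had *Mmp3* well above background on every array, as it was so on 1 of 3 colon arrays.

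*Mmp10* (chromosome 9, 7510011 to 7510070) was measured on every array of these groups, with -1.59, -1.30 and -1.31 in small intestine, 0.97 and 0.21 in adjacent tissue and 3.62, 3.40 and 2.70 in adenomas. The values of the 3 groups did not overlap and increased from small intestine through adjacent tissue to adenoma. *Mmp10* had a log2 fold change of 4.64 between adenomas and small intestine (SE, the standard error, 0.262, limma adjusted p = 8.79e-05), which is 25.0-fold.

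*Mmp13*, the main interstitial collagenase of rodents, cuts fibrillar collagen. Its probe (chromosome 9, 7282762 to 7282821) gave 1.78, 1.23 and 0.35 in adenomas and -3.90, -3.05 and -3.01 in small intestine, with -1.98 and -2.77 in adjacent tissue. All adenoma arrays lay above all others. The log2 fold change against small intestine was 4.44 (SE 0.408, limma adjusted p = 0.000299), or 21.7-fold.

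*Mmp12*, the macrophage elastase, gave almost no signal. Its brighter probe (chromosome 9, 7352935 to 7352994) was well above background on 2 of 3 adenoma arrays, 1 of 2 adjacent arrays and none of small intestine, colon or CT26, and the levels ran from -4.79 to -4.47 in adenomas and from -6.34 to -4.66 in small intestine, which overlap. The other probe was not above background on any of the 14 arrays, so that no difference in *Mmp12* could be measured here.

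The gelatinases *Mmp2* and *Mmp9* degrade denatured collagen and basement membrane collagen, and are typical products of stromal cells and of neutrophils or macrophages, respectively. *Mmp2* (chromosome 8, 95376840 to 95376899) was 0.33, 0.15 and 0.29 in adenomas and -2.10, -2.57 and -2.98 in small intestine, while the adjacent arrays gave -0.18 and -1.14. The adenomas exceeded small intestine 6.99-fold (log2 fold change 2.81, SE 0.242, limma adjusted p = 0.000242). *Mmp9* (chromosome 2, 164780620 to 164780679) was not well above background on the small intestine arrays, at -4.78, -4.01 and -4.27, and was measured at -2.63 and -3.40 in adjacent tissue and -1.32, -1.52 and -1.56 in adenomas. It was at least 7.39-fold higher in adenomas (limma adjusted p = 0.000177). For both gelatinases the 3 adenoma arrays were the highest of the small intestine, adjacent and adenoma arrays.

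*Mmp14* encodes a membrane-anchored proteinase that cleaves collagen at the cell surface and activates the precursor of *Mmp2* in a complex with *Timp2*. *Mmp14* (chromosome 14, 55058775 to 55058834) was 1.34, 1.70 and 1.85 in adenomas, -0.58 and 0.14 in adjacent tissue and -2.00, -1.93 and -2.09 in small intestine, in separate ranges. Its log2 fold change of 3.64 (12.4-fold, SE 0.184, limma adjusted p = 6.5e-05) had the smallest SE of the 9 genes tested.

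The inhibitors differed among themselves. *Timp1* (chromosome X, 20451802 to 20451861), a secreted and cytokine-inducible inhibitor, gave 3.12, 3.1 and 3.04 in adenomas, -0.87 and 0.51 in adjacent tissue and -3.60, -2.94 and -3.05 in small intestine. Its log2 fold change of 6.29 (SE 0.208, limma adjusted p = 3.4e-05) amounts to 78.0-fold and was the largest of the 5 overexpressed members that were measured on all small intestine arrays. *Timp2* (chromosome 11, 118163146 to 118163205), which is widely expressed and takes part in the activation of *Mmp2*, was 3.63, 3.58 and 3.91 in adenomas and 3.13, 3.81 and 2.17 in small intestine. These ranges overlapped, and the log2 fold change was 0.67 (95% interval -0.26 to 1.60, limma adjusted p = 0.185). The additional *Timp2* probe, which spans an exon junction between positions 118171964 and 118178741, gave 0.88 (-0.11 to 1.87, limma adjusted p = 0.115). *Timp3* (chromosome 10, 85811696 to 85811755), an inhibitor bound to the matrix, was 1.0, 1.53 and 2.36 in adenomas and 1.25, 1.81 and 0.50 in small intestine, with a log2 fold change of 0.44 (-0.59 to 1.47, limma adjusted p = 0.417). The intervals of *Timp2* and *Timp3* leave room for differences of up to 1.60 and 1.47 on the log2 scale.

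Markers of other cells also differed between adenomas and small intestine, in both directions. Summed over 9 fibroblast genes, the signal in units of the 75th percentile of the array was 97.4 to 111 in adenomas and 16.4 to 74.1 in small intestine. Each of these arrays had 9 of 9 genes well above background. Within this list *Col1a1* was 3.94 to 4.22 in adenomas and 0.08 to 1.80 in small intestine. *Dcn* overlapped (4.86 to 5.26 against 2.50 to 5.46), and *Fap* was lower in adenomas (-2.41 to -2.07 against -1.30 to -0.94). Of 7 neutrophil genes on the array, *S100a9* was 1.28 to 1.69 in adenomas and -4.92 to -4.02 in small intestine, *S100a8* was -1.01 to -0.75 against -6.36 to -5.89, and *Cxcr2* was not well above background on any array. The summed signal of this list was 54.5 to 61.6 in adenomas and 30.1 to 52.9 in small intestine and was carried by a *Csf3r* probe that ranged from 4.90 to 6.36 over all arrays, CT26 included. Over 9 macrophage genes the sum was 18.3 to 28.1 in adenomas against 67.0 to 99.2, carried by an *Itgam* probe that was also measured in CT26, while the median of the list was 0.34 to 0.49 against -0.03 to 0.43. *C1qc* and *Cd68*, the latter well above background on 4 of all arrays, were higher on every adenoma array. *Itgam* and *Lyz2* were lower on every adenoma array, *Lyz2* with -0.42 to 0.55 against 0.68 to 3.14. Over 7 smooth muscle genes the sum was 96.8 to 118 against 141 to 519. Of 5 endothelial genes, *Cdh5* was 1.02 to 1.82 in adenomas and -2.86 to -2.25 in small intestine and the median of the list was -1.48 to -0.59 against -2.86 to -2.41, with sums of 9.37 to 13.8 and 10.5 to 15.5. The sum over 10 epithelial genes was 1698 to 2027 in adenomas against 2727 to 3355. The part of these cells in the differences of the proteinases and *Timp1* was not tested.

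The comparison of adenomas with adjacent tissue of the same mouse asks which differences separate the tumour from its surroundings. Here 4 of the 10 genes were overexpressed in adenomas and 0 underexpressed, where 2.4% and 1.78% of the 22194 genes tested were so. In these directions 7 and 0 of the members had an unadjusted limma p under 0.05. Of all 29721 probes tested, 11323 had such a p in either direction. The 4 genes were *Mmp3*, at least 10.8-fold higher (limma adjusted p = 0.00432), *Mmp13*, 11.3-fold higher (log2 fold change 3.50, SE 0.462, limma adjusted p = 0.0091), *Timp1*, 9.64-fold higher (3.27, SE 0.395, limma adjusted p = 0.00739), and *Mmp10*, 6.29-fold higher (2.65, SE 0.358, limma adjusted p = 0.00954). *Mmp14*, *Mmp9* and *Mmp2* had log2 differences of 1.85, 1.55 and 0.91 without passing the threshold (limma adjusted p = 0.012, 0.0162 and 0.0802), although each adenoma array lay above both adjacent arrays. *Mmp14* passed in the authors' normalized table (adjusted p = 0.00723), with normexp background correction, with an intensity trend in the variance, with the filter in both groups and without the second adjacent array. *Timp2* and *Timp3* gave -0.16 (95% interval -0.74 to 0.42) and -0.12 (-1.37 to 1.13). The summed fibroblast signal was 43.6 to 64.3 in adjacent tissue, below the adenomas, and *S100a9* was -2.13 and -1.68, and their part in these differences was not tested. The count rests on few arrays, since it was 0 without any 1 of the adenoma arrays, and 0 with the slide as a block. Calls over all probes fell in these settings too, from 675 overexpressed of 29721 with all arrays. There were 63, 0 and 26 without the first, the second or the third adenoma array, and 171 with the slide as a block.

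Adjacent tissue was also compared with small intestine of healthy mice. Of the 10 genes 0 were called in either direction, as were almost all genes, with 0.00925% of 21632 overexpressed and 0% underexpressed. By unadjusted limma p, 5 members were under 0.05 in the direction of higher levels and 0 in that of lower levels. Of all 28817 probes tested, 8747 were under 0.05 in either direction. *Timp1* had the largest log2 difference, 3.02 (95% interval 1.91 to 4.12, limma adjusted p = 0.0467), followed by *Mmp10* with 1.99 (1.28 to 2.70, adjusted p = 0.0467), *Mmp2* with 1.89 (0.92 to 2.86, adjusted p = 0.0615) and *Mmp14* with 1.79 (1.11 to 2.46, adjusted p = 0.0473). *Mmp9* was at least 2.53-fold higher without passing the threshold (limma adjusted p = 0.0808), and *Mmp3* was not well above background in either group. For 7 of 10 genes the adjacent mean fell between those of small intestine and adenomas, the same 7 that were overexpressed in adenomas against small intestine. These comparisons share arrays, so that this order is a description of the levels, and it was not counted over all genes.

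**Figure D2:**
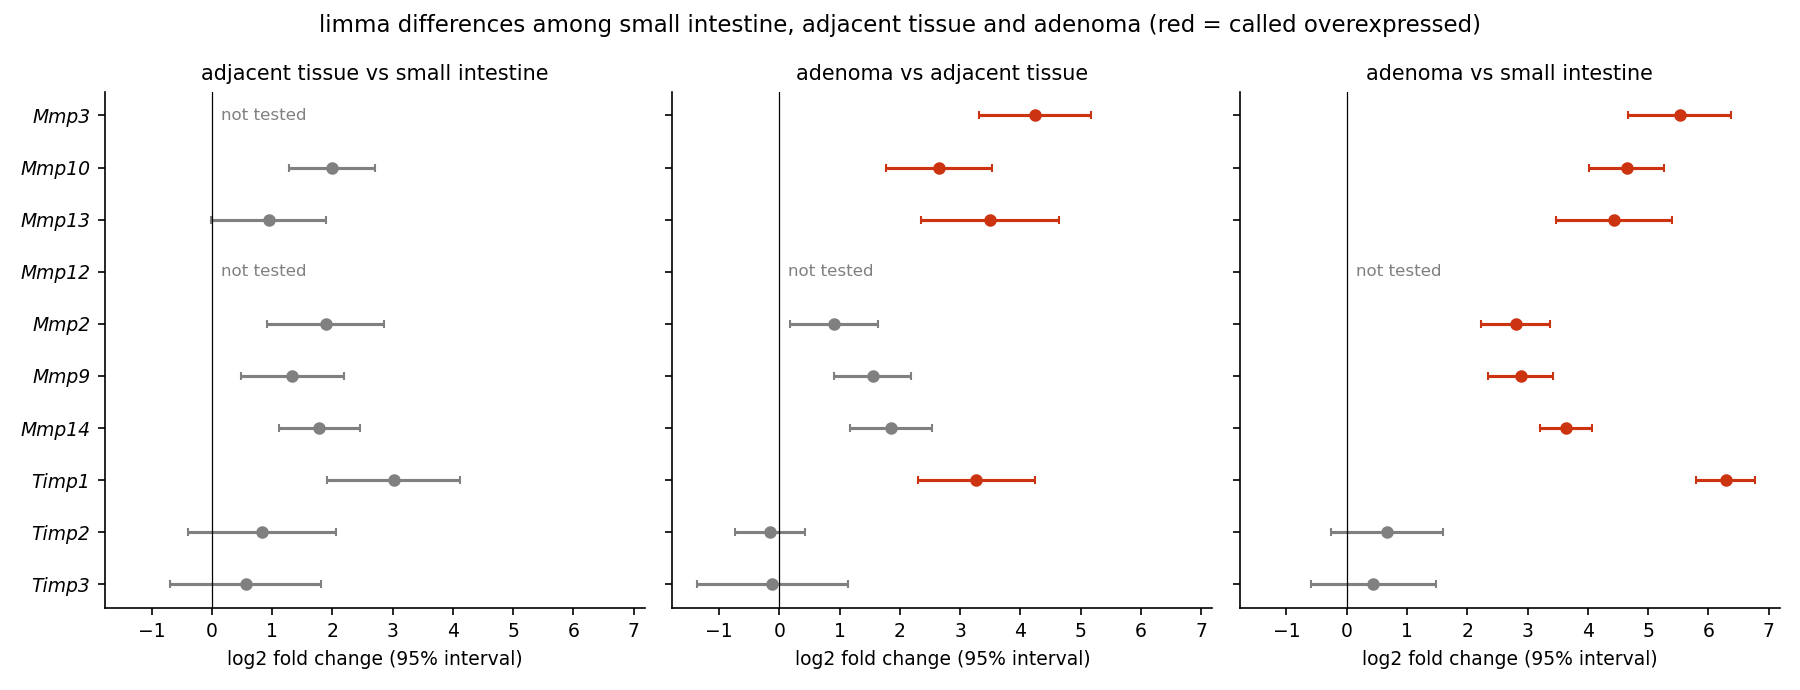
Log2 fold changes with 95% intervals (x axis, limma) of the 10 genes (y axis) for adjacent tissue against small intestine, adenoma against adjacent tissue and adenoma against small intestine, where red points passed both thresholds and grey points did not. Against small intestine 7 genes are red, against adjacent tissue 4 are, and the intervals of *Timp2* and *Timp3* include 0 in all panels.

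The remaining genes of the system were taken from lists, which were chosen with earlier results of these data known. Of 17 other Mmp and Timp genes, 8 were tested between adenomas and small intestine, and 3 were overexpressed, where 11.3% of all genes were. These were *Mmp8*, the neutrophil collagenase (log2 fold change 2.29, at least 1.07-fold, limma adjusted p = 0.000603), *Mmp28*, or epilysin (1.98, at least 1.04-fold, adjusted p = 0.00095), and *Mmp11*, or stromelysin 3, a product of tumour stroma (1.97, adjusted p = 0.00421). *Mmp8* and *Mmp28* were not well above background in small intestine, so that their bounds are close to 1. *Mmp7*, or matrilysin, a product of Paneth cells and of intestinal adenomas, had a log2 fold change of 0.21 (limma adjusted p = 0.605). The median log2 difference over these 17 genes was -0.43, near the -0.39 of all genes.

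Of 12 genes that activate, inhibit or stabilise the proteinases, 11 were tested, and 5 were overexpressed and 1 underexpressed in adenomas. Among all genes 11.3% and 11.1% were so. The median log2 difference over the list was 1.82. *Plat*, the tissue plasminogen activator, had a log2 fold change of 5.29 (SE 0.167, limma adjusted p = 3.4e-05). Plasmin, which the activator releases from plasminogen, removes the propeptide of several proteinases. *Lcn2*, the neutrophil gelatinase-associated lipocalin that binds the *Mmp9* protein, had 4.62 (limma adjusted p = 0.000495), and *A2m*, a broad inhibitor of proteinases in plasma, was at least 4.88-fold higher (adjusted p = 0.00425). *Pcsk5*, a proprotein convertase, was underexpressed, with -1.61 (limma adjusted p = 0.000957).

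The ADAMTS proteases, which cleave proteoglycans and are inhibited by *Timp3*, had 5 of 19 genes overexpressed and 0 underexpressed, with 9 tested. Among all genes 11.3% and 11.1% were so, and the median over the list was 0.28. Among them were *Adamts4* (4.17, limma adjusted p = 5.31e-05) and *Adamts1* (3.18, adjusted p = 0.000238), both measured in small intestine, and *Adamts7* (at least 3.07-fold, adjusted p = 7.81e-05) and *Adamts9* (at least 8.68-fold, adjusted p = 0.000253), which were not well above background there. Among 8 AP-1 subunits, *Fosl1* was overexpressed (4.06, SE 0.506, limma adjusted p = 0.000937) and *Atf3* underexpressed (-2.08, adjusted p = 0.00213), 1 of 8 in each direction where 11.3% and 11.1% of all genes were called, and the other 6, *Fos* and *Jun* included, were not called. The median over the AP-1 list was -0.65. Against adjacent tissue, 1 of 8 tested other Mmp and Timp genes, 3 of 11 regulators, 2 of 11 ADAMTS proteases and 0 of 8 AP-1 subunits were overexpressed in adenomas, where 2.4% of all genes were.

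**Figure D3:**
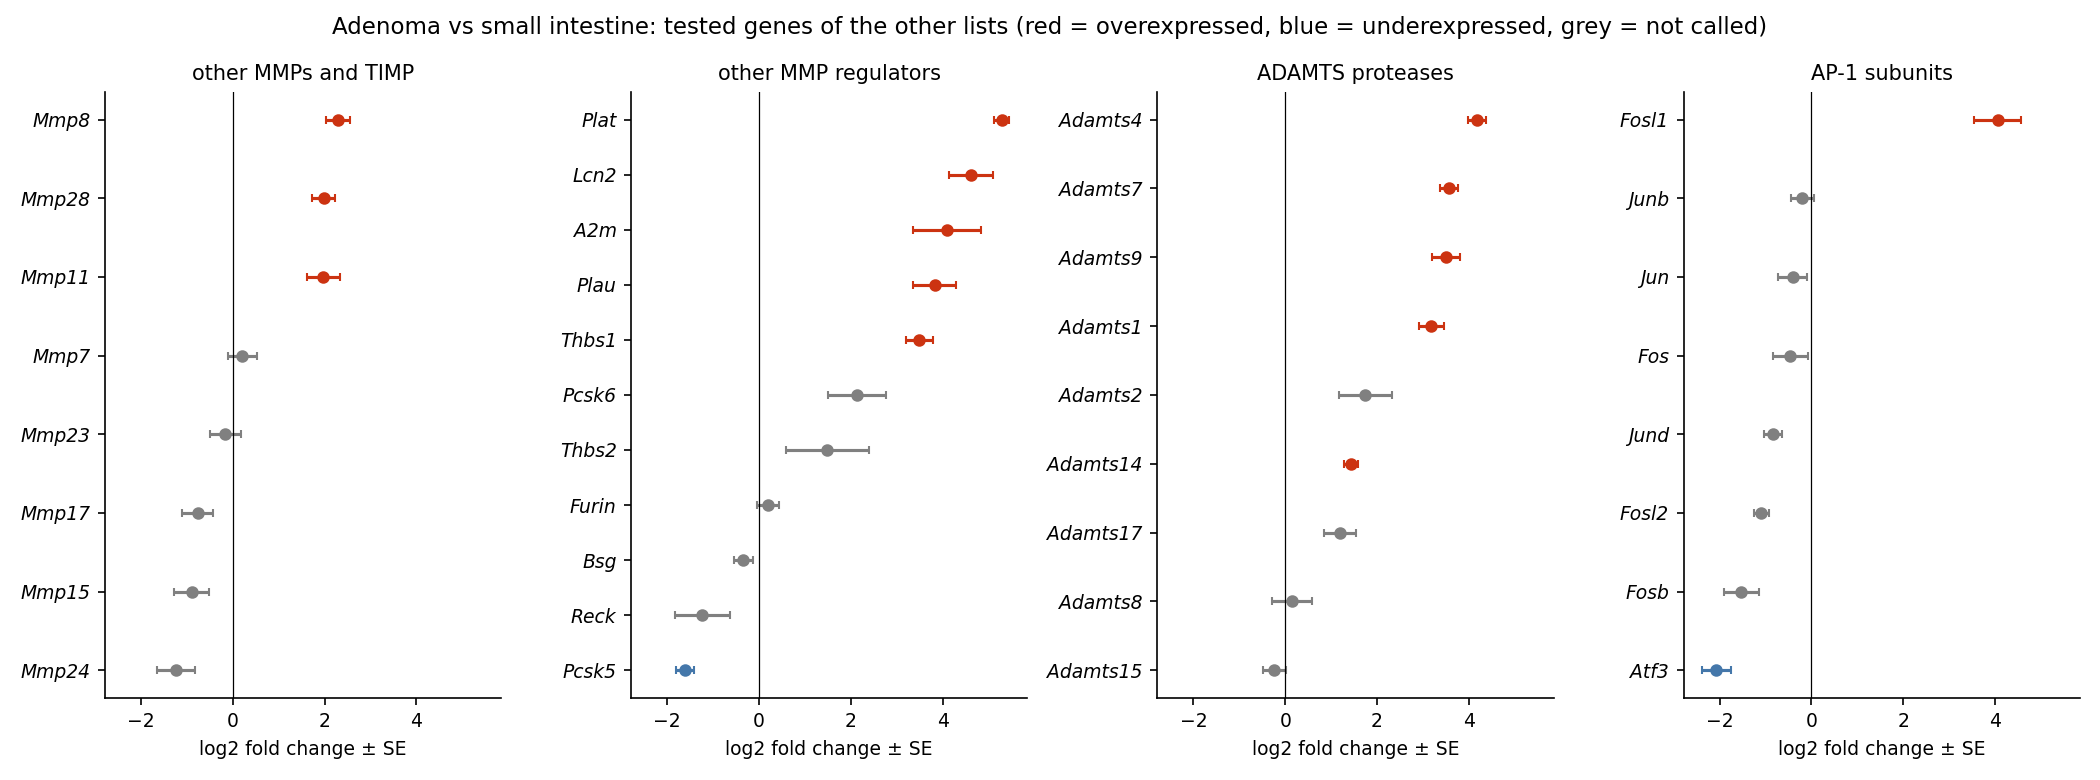
Log2 fold change ± SE (x axis, limma) between adenomas and small intestine for the tested genes of 4 lists, with overexpressed genes in red, underexpressed genes in blue and the rest in grey. Of the regulators 5 are red and 1 blue, of the ADAMTS proteases 5 are red, and of the AP-1 subunits *Fosl1* alone is red and *Atf3* alone blue.

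*Mmp3*, *Mmp10*, *Mmp12* and *Mmp13* lie in a cluster of 10 Mmp genes on chromosome 9, whose probes span 414939 bases from 7282762 to 7697700 (mm9). In map order the genes are *Mmp13*, *Mmp12*, *Mmp1b*, *Mmp3*, *Mmp1a*, *Mmp10*, *Mmp8*, *Mmp27*, *Mmp20* and *Mmp7*. In adenomas 4 of them were overexpressed against small intestine, *Mmp13*, *Mmp3*, *Mmp10* and *Mmp8*, where 11.3% of all genes tested were. *Mmp1b*, *Mmp1a* and *Mmp27*, which lie between or beside these genes, were not well above background on any adenoma or small intestine array. The overexpressed genes were not contiguous on the map. *Mmp7*, at the end of the cluster, was bright in both groups and differed by 0.21.

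**Figure D4:**
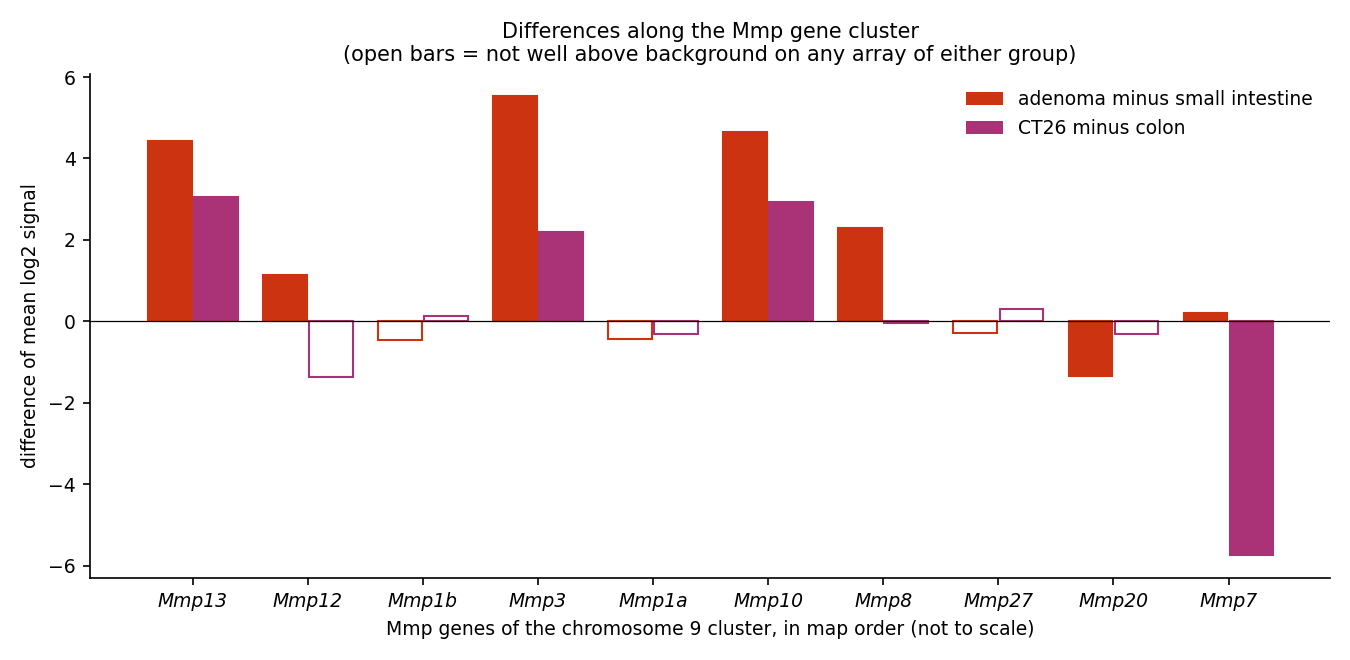
Difference of mean log2 signal (y axis) for the 10 Mmp genes of the cluster in map order (x axis, not to scale), for adenoma minus small intestine and CT26 minus colon, where open bars had no array well above background in either group. *Mmp13*, *Mmp3* and *Mmp10* are positive in both contrasts, while *Mmp7* is at 0.21 in adenomas and -5.74 in CT26, or -3.33 without the third colon array.

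Healthy colon and small intestine were compared as the normal tissues. Of the 10 genes 0 were called by limma, with 0.00485% of 20637 genes overexpressed in colon and 0.00485% underexpressed. An unadjusted limma p under 0.05 was found for 4 members in the direction of higher levels in colon and 2 in that of lower levels. Of all 27284 probes tested, 6413 had such a p in either direction. *Mmp10* had the largest difference, with -6.72, -4.50 and -5.87 in colon, above background on 1 of 3 arrays, and a log2 fold change of -4.30 (95% interval -5.60 to -3.00, limma adjusted p = 0.0398). Without the third colon array it was -4.21 and underexpressed (limma adjusted p = 0.00786), and *Mmp14*, at -0.18, 0.27 and -1.40 in colon, was then overexpressed with 2.05 (adjusted p = 0.00398), against 1.57 (adjusted p = 0.117) with that array. In that setting 1000 of all 30521 probes tested were overexpressed and 1120 underexpressed, against 1 and 1 of 27284 with all arrays. The other members tested gave -1.81 for *Mmp13*, 1.70 for *Timp1*, 1.27 for *Timp2*, 1.02 for *Timp3* and 0.49 for *Mmp2* with all arrays, and -1.42, 1.61, 1.64, 1.22 and 1.06 without the third, none of them called.

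The second colon array was the highest of the colon arrays for *Mmp2*, *Mmp3*, *Mmp10*, *Mmp13*, *Mmp14*, *Timp1*, *Timp2* and *Timp3*. *Mmp2* measured 0.07 on it and -3.04 and -3.22 on the others, and *Mmp3* -2.84 against -5.82 and -5.00. Its summed fibroblast signal was 85.0, against 44.5 and 38.8, and its summed macrophage signal 54.2, against 39.9 and 65.9. The part of these cells in the spread of the colon arrays was not tested. Without this array the log2 difference of *Mmp2* between colon and small intestine was -0.58, in place of 0.49.

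CT26 cells were compared with colon. Of the 10 genes 3 were overexpressed in CT26 and 2 underexpressed, where 21% and 16.2% of the 21674 genes tested were so. *Timp1* measured 6.91, 4.75 and 5.06 in CT26 and -2.58, -0.59 and -1.32 in colon, which differ by 7.07 on the log2 scale (135-fold, SE 0.695, limma adjusted p = 0.000137). *Timp2* measured 6.18, 6.82 and 6.90 against 4.57, 4.79 and 3.56, and its log2 fold change was 2.33 (SE 0.409, limma adjusted p = 0.00235), or 1.96 without the third colon array. On the additional probe of *Timp2* the CT26 arrays gave 5.12 to 5.15 and the colon arrays -0.65 to 1.11, a log2 fold change of 4.93 (limma adjusted p = 9.3e-05), so that the probes differ in size and have the same direction. *Timp3* had the opposite pattern, with -3.21, -5.14 and -5.07 in CT26, above background on 1 of 3 arrays, and 2.31, 2.50 and 1.82 in colon, a difference of -6.68 (SE 0.545, limma adjusted p = 5.38e-05). The inhibitors therefore diverged in this line, with *Timp1* and *Timp2* above and *Timp3* below all tissue arrays.

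Of the proteinases, *Mmp10* was overexpressed in CT26 against colon, at -3.07, -2.33 and -2.88, with a log2 fold change of 2.94 (SE 0.558, limma adjusted p = 0.00341). This value was 0.61 with another background correction (normexp), at which it was not called, and 2 of 3 colon arrays were not above background. *Mmp13*, at -0.77, -2.43 and -3.03 in CT26 and -5.80, -3.68 and -5.90 in colon, had a log2 fold change of 3.05 and missed the threshold (limma adjusted p = 0.0117), as did *Mmp3* with 2.18 (-2.66, -2.13 and -2.32 in CT26, limma adjusted p = 0.0325). *Mmp14* was at -0.04, 0.22 and 0.21 in CT26, overlapping colon, with 0.57 (95% interval -0.48 to 1.61, limma adjusted p = 0.326). *Mmp2* was not well above background in CT26, at -6.75, -7.11 and -7.20, and was underexpressed, at least 7.54-fold lower than in colon (limma adjusted p = 0.00181). That bound was 3.6-fold without the second colon array and 11.2-fold without the third, and in the authors' normalized table the log2 fold change was -1.75 and not called (adjusted p = 0.061). *Mmp9* and *Mmp12* were not well above background on any CT26 or colon array. Without the third colon array the counts were again 3 and 2, with log2 fold changes of 7.16 for *Timp1*, -6.88 for *Timp3*, 2.86 for *Mmp10*, 2.66 for *Mmp13*, 1.96 for *Mmp3* and 0.08 for *Mmp14*, whereas there were 5 overexpressed genes without the second, *Mmp13* and *Mmp3* being added (3.77 and 3.04, adjusted p = 0.00386 and 0.00117). The calls of single genes also rested on CT26 arrays, since *Mmp10* was not called without any 1 of them, *Timp2* without the second or the third, and *Mmp2* without the first. *Timp2* was also not called in the authors' normalized table (1.78, limma adjusted p = 0.0168) or with quantile normalization (1.80, adjusted p = 0.0186). *Mmp10* was not called with the slide as a block (limma adjusted p = 0.0102) or in the authors' table (1.18).

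Other genes of the system were also called between CT26 and colon, where 21% of all genes tested were overexpressed and 16.2% underexpressed. Tested were 6 of the 17 other Mmp and Timp genes, 9 of the 12 regulators, 9 of the 19 ADAMTS proteases and all 8 AP-1 subunits. *Mmp11* was overexpressed (3.87, limma adjusted p = 0.000113), and *Mmp15* (at least 49.5-fold lower, adjusted p = 0.000146) and *Mmp17* (-3.68, adjusted p = 3.89e-05), both membrane-bound proteinases, were underexpressed among 17 genes. *Thbs2*, a matricellular protein, was overexpressed (3.91, limma adjusted p = 6.11e-05), and the convertases *Pcsk5* and *Pcsk6* underexpressed (at least 18.3-fold and 18.5-fold lower, adjusted p = 0.00027 and 0.000567) among 12 regulators. Of the ADAMTS proteases 4 were overexpressed and 5 underexpressed, among them *Adamts14* (3.86, limma adjusted p = 0.0004) and *Adamts15* (at least 97.0-fold lower, adjusted p = 9.08e-06). *Fosl1* was again the AP-1 subunit with the largest increase (8.31, limma adjusted p = 0.000376), while *Fos* (-2.77, adjusted p = 0.00279) and *Atf3* (-6.90, adjusted p = 0.000216) were underexpressed. Without the third colon array these genes were called in the same direction, with bounds of 98.8-fold for *Mmp15*, 10.5-fold for *Pcsk5* and 28.3-fold for *Pcsk6*. The counts became 1 and 4 of 7 tested for the other Mmp and Timp genes and 4 and 8 of 12 tested for the ADAMTS proteases. Of all 31782 probes tested in that setting, 6513 were overexpressed and 5874 underexpressed. *Mmp7*, -5.74 and not called with all arrays, was then at least 4.33-fold lower in CT26 (adjusted p = 0.000197).

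CT26 was set against adenomas to compare the tumour models directly. The 9 genes tested were all called, 2 overexpressed and 7 underexpressed in CT26, where 21.9% and 20% of 22802 genes were so. *Timp1* and *Timp2* were higher in CT26 by 2.49 and 2.93 (log2, SEs 0.521 and 0.252, limma adjusted p = 0.00394 and 3.07e-05). *Mmp2* was at least 37.6-fold lower and *Mmp9* at least 11.4-fold lower (limma adjusted p = 8.87e-08 and 3.69e-07). *Timp3* had a log2 fold change of -6.10, *Mmp10* of -6.00, *Mmp13* of -3.20 and *Mmp14* of -1.50 (limma adjusted p = 4.95e-05, 1.73e-06, 0.00232 and 0.000566). For *Mmp3* it was -1.32 (limma adjusted p = 0.00478), which is close to the threshold, and it was not called without the first or the second adenoma array or the first or the third CT26 array, nor in the authors' normalized table (-0.69), with normexp (-1.05), with quantile normalization (-1.01), without the probe filter or with all 5 groups in a common fit (adjusted p = 0.0823). *Mmp13* was not called without the second adenoma array or the second CT26 array. *Timp1* was not called without any 1 of the adenoma arrays (adjusted p = 0.0117 to 0.0161). The median probe tested lay at 0.37 in this comparison and in that with colon, so that a value of that size is no difference from the median probe.

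Part of the fibroblast list was present in CT26, with 6 or 7 of 9 genes well above background on an array. *Col1a2* was 7.70 to 8.12 there and 1.97 to 5.24 in small intestine, adjacent tissue and adenomas, and the summed signal of the fibroblast list was 233 to 319 in CT26, whereas *Lum* and *Thy1* were not well above background. The macrophage list had 3 or 4 of 9 genes above background in CT26. The part of other cell types in the lower *Mmp2* and *Mmp9* of the line was not tested.

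Whether the change from colon to CT26 differed from that between small intestine and adenoma was tested as a difference of differences over 12 arrays, a test chosen after the data had been seen. It was called for 5 of the 9 genes tested, all with a lower value in the CT26 contrast, where 15.5% of 23414 genes were called above and 15.3% below. The fitted difference was -7.13 for *Timp3* (log2, SE 0.767, limma adjusted p = 2.57e-05) and -3.07 for *Mmp14* (0.51, adjusted p = 0.000597), with *Timp3* above background on 1 of 3 CT26 arrays. For the other 3 genes a group lay at background. *Mmp2* gave -7.76 (adjusted p = 7.98e-05), of which -5.72 is the bound, as CT26 was not above background. *Mmp3* gave -3.34 (adjusted p = 0.00987), with small intestine not above background and colon on 1 of 3 arrays. It was -1.27 with small intestine at its bound and colon as measured. This is no bound on the difference, since the other colon arrays were dim. *Mmp9* gave -3.69 and has no bound, since small intestine, colon and CT26 were all not above background. *Timp1* was called in both contrasts, and its difference of 0.79 was within error (SE 0.81, limma adjusted p = 0.455). *Mmp10* and *Mmp13* gave -1.71 and -1.39 (SEs 0.674 and 0.971, limma adjusted p = 0.0593 and 0.267), and *Timp2* 1.66 (0.604, adjusted p = 0.043). Without the third colon array the same 5 genes were called, with fitted differences of -7.32 for *Timp3*, -3.55 for *Mmp14*, -8.34 for *Mmp2*, -3.56 for *Mmp3* and -3.35 for *Mmp9*. The call of *Mmp3* was lost without any 1 of the small intestine, adenoma or CT26 arrays.

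**Figure D5:**
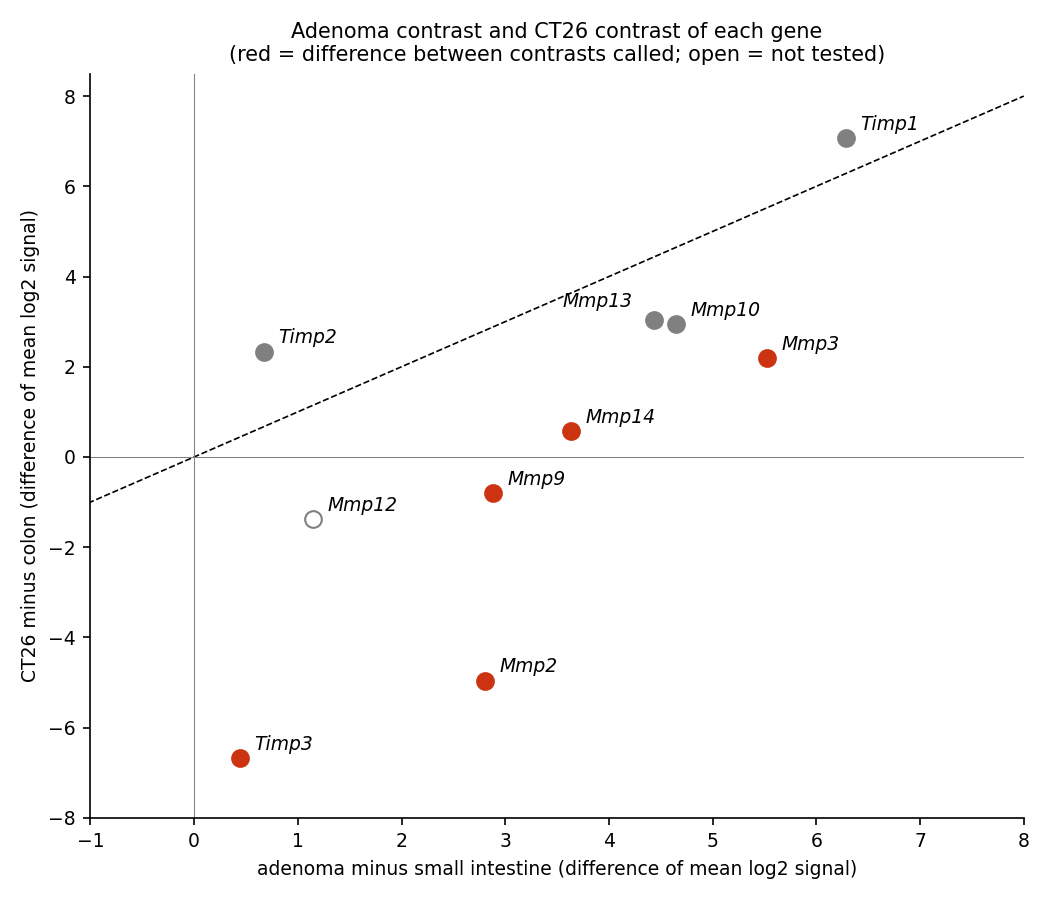
Difference of mean log2 signal for CT26 minus colon (y axis) against adenoma minus small intestine (x axis), with a point for each gene, where the dashed line marks equal differences, red points have a called difference between the contrasts and the open point was not tested. *Timp1* lies at 6.29 and 7.07, close to the line, and *Mmp2* and *Timp3* lie farthest below it. *Mmp2* in CT26, *Mmp3* in small intestine and *Mmp9* in small intestine, colon and CT26 were not above background, so that their positions rest on background signal.

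Genes with a pattern like that of a member were ranked by Pearson r over the 11 tissue arrays among 22580 genes, as a description in which the arrays share groups and, for adenomas and adjacent tissue, a mouse. Genes close to *Mmp3* included *Dapl1* (r = 0.978) and *Icam1* (0.976). *Mmp13* was closest to *Wfdc15b* (0.979), *Plat* (0.975) and *Inhba* (0.966). *Mmp10* and *Mmp9* were each other's nearest named gene (0.976), and *Cfi* was the next for both (0.975 and 0.973). *Timp1* was nearest to *Elk3*, *Lef1* and *Csgalnact1* (0.991, 0.990 and 0.990), *Mmp14* to *Bace1*, *Pacsin3* and *Vasn* (0.991, 0.990 and 0.987), and *Mmp2*, apart from an unnamed transcript, to *Bmp6* and *Wnt10a* (0.956 and 0.954). *Timp2* was nearest to *Fkbp7*, *Slc4a3* and *Zfp521* (0.978, 0.970 and 0.965) and *Timp3* to *Cald1*, *Msrb3* and *Timp2* (0.924, 0.886 and 0.880), with *Mmp12*, mostly below background, reaching 0.900 at most. With the CT26 arrays added, the value of *Timp2* with *Timp3* was -0.79 and that of *Mmp3* with *Icam1* was 0.308.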

How the data were processed

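RNA of 14 samples was labelled with Cy3 and hybridized to 1-colour Agilent mouse arrays. Per the file headers, the deposited intensity values are background-subtracted, processed signals of Agilent Feature Extraction (10.7.3.1), with probe positions on mm9 (NCBI37). The authors also deposited a table of normalized log2 values, whose 14 columns each matched their own array best (lowest r = 0.955) and had medians of 6.86 to 6.87. That table served as an alternative, its exact normalization steps were not reconstructed, 28 further per-sample columns of flags were not used, and its columns of the authors' own comparisons (folds and p-values) were not used.

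Control spots and outlier spots were left out, spots of a probe were averaged, and log2 signals were centred on the 75th percentile of each array. Groups were compared pairwise with limma 3.58.1 in R 4.3.3, with Benjamini-Hochberg adjustment over all probes tested. Where a gene had several probes, the one with the highest mean signal over all arrays was read. The thresholds, 1.2 in log2 fold change and 0.01 in adjusted p, follow the study's methods. A probe not well above background on any array of the dimmer group has only a bound there, given as "at least N-fold". On each dim array it is taken against the dimmest signal well above background or the probe's own signal, whichever is higher. For *Mmp9* against small intestine the own signals were higher, so that these bounds equal the measured differences. The interval of a fold change is its 95% confidence interval.

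Members of the set were given in full. From each further list the 3 called genes with the largest fold change in either direction were eligible to be named, 1 gene is not reported here and was left out of its list, and *Mmp7* was named after its values had been seen. The members and lists were chosen with earlier results of these data known. Groups came from the labels, and the replicate numbers do not pair the samples. The fits were tested on simulated data. The number of arrays per group, 2 or 3, limits the precision. Alternatives in background correction, normalization, probe filter, blocks, thresholds and arrays left out were tried, and the lists without a colon array and the bounds on differences of differences were added after seeing the data.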

Additional observations from a re-analysis of the deposited data

Results flagged for a closer look

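The change from colon to CT26 differed from the change from small intestine to adenoma for 5 genes, in a limma test of the difference of differences over 12 arrays that was chosen after the data had been seen. On the log2 scale the difference was -7.76 for *Mmp2*, -7.13 for *Timp3*, -3.69 for *Mmp9*, -3.34 for *Mmp3* and -3.07 for *Mmp14*. Among all genes 15.5% had a called difference above 0 and 15.3% below 0. The values of 3 genes rest on groups at background. *Mmp9* was not well above background on any small intestine, colon or CT26 array, which leaves no bound on its difference. *Mmp2* was not so on any CT26 array, which bounds its difference at -5.72. *Mmp3* was not so on any small intestine array and was so on 1 of 3 colon arrays only, which leaves no bound. With small intestine at its bound and colon as measured, the difference of *Mmp3* was -1.27. The call for *Mmp3* (adjusted p = 0.00987) was lost when any small intestine, adenoma or CT26 array was left out. Strain, tissue and cell culture cannot be told apart in these differences.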

How the results depend on the processing

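Between adenomas and small intestine the count of overexpressed genes was 7 under every alternative tried except a filter for signal in both groups, which removes genes dim in small intestine and gave 5. Between adenomas and adjacent tissue the 4 overexpressed genes became 0 without the probe filter, 0 with the slide as a block, 1 with all 5 groups in a common fit, and 0 without any 1 of the adenoma arrays, and rose to 5, *Mmp14* being added, in the authors' normalized table, with normexp and with an intensity trend. Over all probes, the 675 overexpressed of 29721 became 68 of 55666 without the filter. They became 171 with the slide as a block and 202 of 29688 with the common fit. For adjacent tissue against small intestine, 3 genes passed as overexpressed at an adjusted p of 0.05 with no minimum fold. Between colon and small intestine 1 gene was underexpressed with all 5 groups in a common fit and 1 at an adjusted p of 0.05, and with an array left out 0 to 1 gene was over- and 0 to 1 underexpressed, the 1 and 1 without the third colon array. Over all probes, 687 of 27261 were underexpressed with the common fit. Without the third colon array 1000 of 30521 were over- and 1120 underexpressed. Between CT26 and colon the 3 overexpressed genes became 1 in the authors' normalized table and 5 with all 5 groups in a common fit or at an adjusted p of 0.05, and 1 to 5 with an array left out (1 without the second or the third CT26 array, 5 without the second colon array). *Timp2* was lost with quantile normalization, *Mmp10* with normexp or the slide as a block, and *Mmp13* was gained with an intensity trend. The 2 underexpressed genes there became 1 in the authors' table, 0 under the filter in both groups and 1 to 2 with an array left out (1 without the first CT26 array). Between CT26 and adenomas the 7 underexpressed genes became 4 under the filter in both groups, which leaves out genes dim in CT26, 6 in the authors' table, with normexp, with quantile normalization or with a common fit, and 5 to 7 with an array left out (5 without the second adenoma array), and the 2 overexpressed genes 1 to 2 with an array left out (1 without any of the adenoma arrays). Except for the filter in both groups, the cause of these changes was not tested.

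The replicate numbers did not pair the samples. The correlations of deviations between same-numbered adenoma and small intestine arrays were -0.00426, 0.0481 and -0.0971. Blocking on that number, the adenoma and small intestine comparison again gave 7 genes, that of adenomas and adjacent tissue 1, or 0 with the numbers of the sample titles, CT26 and colon 3 and 2, and CT26 and adenomas 2 and 6. Of all 29721 probes tested between adenomas and adjacent tissue, 85 were then overexpressed, or 0 with the title numbers.

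The sign turned for 4 differences that were not called. For *Timp3* between adenomas and adjacent tissue, -0.12 became 0.20 with the title numbers as a block, and ran from -0.71 to 0.48 with an array left out. For *Timp2* it ran from -0.46 to 0.15. Between adjacent tissue and small intestine *Timp3* ran from -0.0387 to 1.16, and between colon and small intestine *Mmp2* ran from -0.58 to 1.06. Of 391 member fold changes with an array left out, 340 kept their direction and side of the threshold, 41 lost a call, 5 gained one and 5 turned sign, and of 445 under the other alternatives these numbers were 405, 31, 8 and 1.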
